A study of Mus musculus with 8 samples.

Results

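Amino acid and glutamate transport was followed through 10 genes of plasma membrane carriers in myeloid cells of mouse glioma. They were chosen by name and read from a table of 55450 genes, in which all 10 had counts in every group and passed the filter on low counts. The members are Slc1a3, Slc1a5, Slc3a2, Slc6a6, Slc7a5, Slc7a7, Slc7a8, Slc7a11, Slc38a2 and Slc43a2. Isogenic GL261 cells, a mouse glioma line, had been implanted into the brains of mice with the genotype label WT, and the labels give neither age nor treatment beyond the tumor. All 8 libraries came from such tumors, so no group stands for brain without a tumor. The 3 microglia libraries hold resident myeloid cells sorted as F4/80+, CD11b+, CD45 low, Ly6C low or negative, Ly6G negative and CD49d low or negative. The 5 libraries labelled BMDM hold macrophages that reach the tumor from blood monocytes, sorted as F4/80+, CD11b+, CD45+, Ly6C low or negative, Ly6G negative and CD49d high. Nothing in the labels says whether libraries came from separate mice or pooled ones, so p-values measure the spread between libraries, which may be technical.

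Cells cannot make all amino acids, and most cross the membrane through carriers of the solute carrier (Slc) families. Slc1 carriers use the sodium gradient to take up glutamate or small neutral amino acids, and glutamate uptake keeps this transmitter low around neurons. Several Slc7 proteins are light chains that reach the cell surface only when linked to the heavy chain encoded by Slc3a2 (CD98). Such pairs exchange one amino acid for another: leucine and other large neutral amino acids with Slc7a5 or Slc7a8, arginine and lysine with Slc7a7, and cystine against glutamate with Slc7a11. In macrophages, cystine uptake feeds glutathione synthesis and releases glutamate, while leucine uptake feeds the growth kinase complex mTORC1.

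The libraries held 5890406 to 16659154 counts. Gm42418, a noncoding gene model, held 14.8% to 19.8% of BMDM 1 to 3 but 41.2% of BMDM 4 and 48.9% of BMDM 5, near its 34.0% to 47.0% of microglia counts. When all were thinned to 4151079 counts, BMDM 4 and BMDM 5 showed 13343 and 14534 genes, against 19717 to 21622 for BMDM 1 to 3 and 17346 to 21895 for microglia. BMDM 4 and BMDM 5 therefore stood apart, and results that rest on them are given with and without them. Of the marker lists, 7 of 10 microglia genes were called lower and 6 of 10 monocyte-derived macrophage genes higher in BMDM. The shares over all genes tested were 0.814% lower and 1.11% higher. Among the macrophage genes called was Itga4, which encodes CD49d (11.6 CPM at the median of microglia and 79.4 of BMDM). Fn1 of that list went the other way (means of 170.4 CPM in microglia and 120.5 in BMDM) and was not called. Both lists were chosen with earlier results of these data known, so these counts do not test the sort. CPM are counts scaled to the library total and its TMM factor, and the 3′ libraries give a read per transcript end, so CPM were compared between libraries and not between genes.

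Of the 10 carriers, 1 was called lower in BMDM and 0 higher, at an adjusted p of 0.05 in edgeR's quasi-likelihood test over 16467 genes. Over all genes tested, 1.11% were called higher and 0.814% lower. The called carrier was Slc1a3, a glutamate transporter. By unadjusted p under 0.05, 1 carrier was higher and 3 were lower in BMDM, as were 6.49% and 7.27% of all genes tested. The members' median log2 fold change (BMDM minus microglia) was -0.21, with 5 above 0 and 5 below, against a median of 0.08 for all genes tested. DESeq2 called 1 higher and 1 lower, where 3.65% of all genes were higher and 1.9% lower, and limma-voom called 0 higher and 1 lower (0.856% and 1.52% of all genes).

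**Figure D1:**
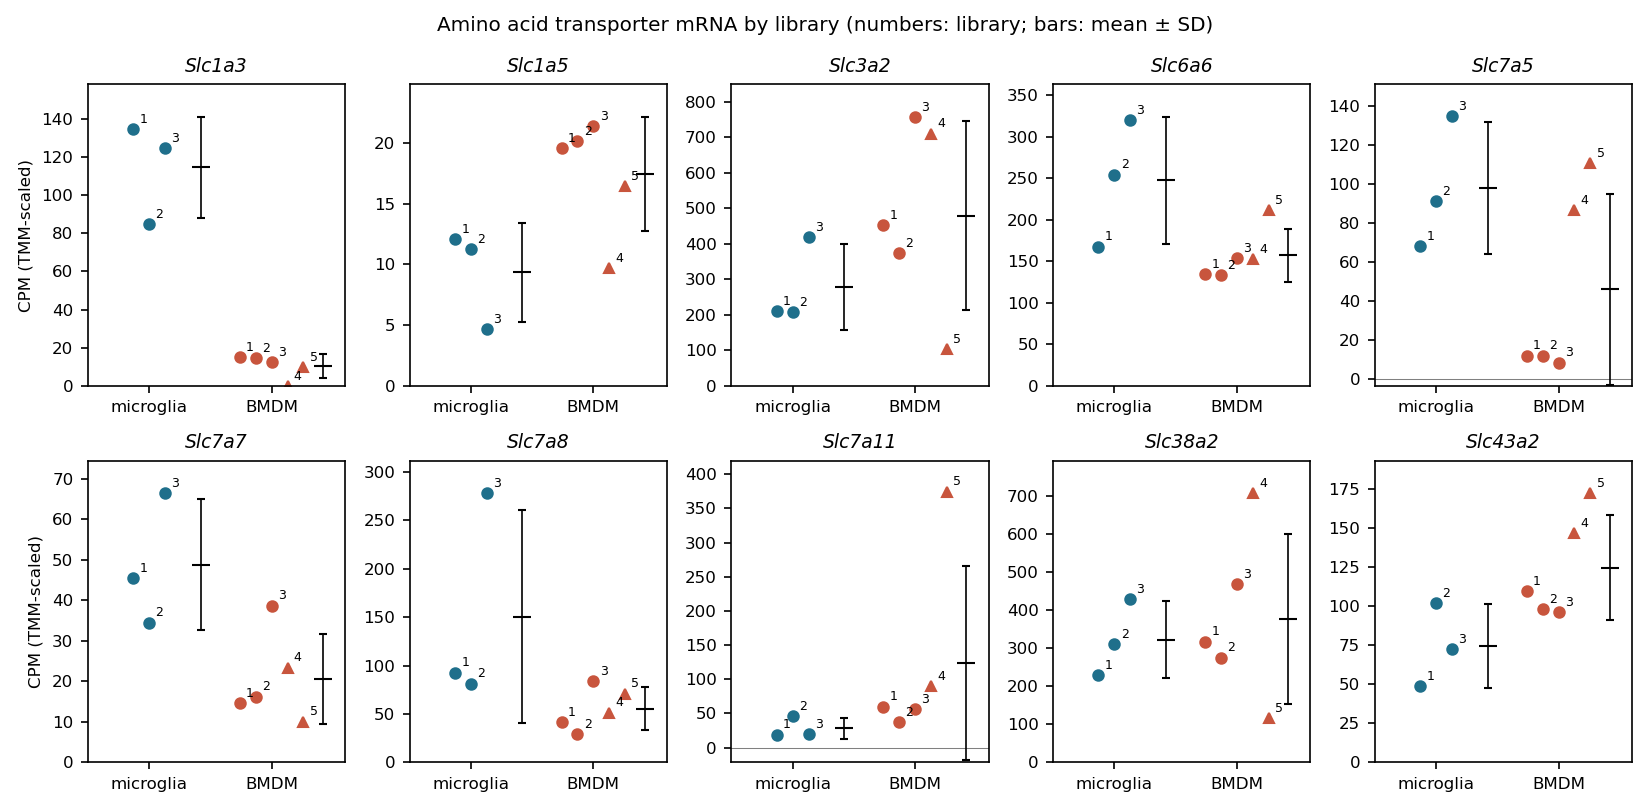
CPM (TMM-scaled, linear axis) of the 10 carriers in each library; points are libraries numbered as in the labels, triangles mark BMDM 4 and BMDM 5, and bars are the mean ± SD of 3 microglia and 5 BMDM libraries. Slc1a3 is the carrier whose groups do not overlap, and Slc7a5 splits BMDM 1 to 3 from BMDM 4 and BMDM 5.

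Slc1a3 (also called GLAST or EAAT1, chr15:8634124-8710764, minus strand in GRCm38) takes up glutamate and is best known from astrocytes. Its mRNA level was 134.5 CPM in microglia 1, 84.6 in microglia 2 and 124.5 in microglia 3. In BMDM 1 to 5 it was 15.1, 14.4, 12.4, 0 and 9.95 CPM. Every BMDM library lay below every microglia library, and BMDM 4 had no count, which at its depth allows up to 0.478 CPM (3 counts, for counting error only). The means were 114.5 ± 26.4 CPM (SD, n = 3) in microglia and 10.3 ± 6.12 (SD, n = 5) in BMDM. Slc1a3 was thus 11.02-fold higher in microglia, or -3.46 as log2 fold change (SE 0.74, 95% interval -5.05 to -1.88, edgeR adjusted p = 0.0259). Groups failed to overlap in this direction for 8.66% of all genes tested, and in the opposite direction, which no carrier showed, for 4.32%. In sorted populations, fewer cells that express a gene and less RNA per cell cannot be told apart.

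The Slc1a3 difference kept its direction in every fit run, but its call did not hold in all of them. BMDM 4 lacked counts for 13% of the genes that the mean of the other 7 libraries put at 20 or more counts there, the highest share of the 8 libraries. Without BMDM 4 the log2 fold change was -3.15 (edgeR adjusted p = 0.00205), and with BMDM 1 to 3 alone it was -3.03 (SE 0.28, edgeR adjusted p = 0.000404). The edgeR call was lost without microglia 1, 2 or 3 (adjusted p = 0.264, 0.173 and 0.178) and without BMDM 1, 2 or 3 (adjusted p = 0.0646, 0.0504 and 0.0764). It was also lost with library totals in place of TMM factors (adjusted p = 0.0636) and with BMDM 4 and BMDM 5 alone (-4.52, adjusted p = 0.202), while DESeq2 and limma-voom made it.

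Because astrocytes carry Slc1a3, their other markers were read beside it. The astrocyte list of 11 genes summed to 48.1 to 196 CPM in microglia and 89.7 to 181 CPM in BMDM, and the groups overlapped. Of the 11, 6 were tested and 0 were called by edgeR, DESeq2 or limma-voom. By unadjusted p under 0.05, 1 was higher and 0 were lower, against 6.49% and 7.27% of all genes tested. Gfap, the astrocyte filament protein, was at 0.556 to 0.894 CPM in microglia, and the water channel Aqp4 was at 0 in microglia 2 and microglia 3. S100b, among the highest of the list, ranged from 22.2 to 73.3 CPM in microglia. Slc1a2, the main glutamate transporter of astrocytes, was at 11.2, 2.92 and 5.9 CPM in microglia and at 1.73, 0.246, 13.96, 25.3 and 4.42 CPM in BMDM 1 to 5. Its groups overlapped (log2 fold change 0.45, SE 1.04, edgeR adjusted p = 0.921), and the sign turned without BMDM 4 (-0.41). The part of astrocyte RNA in the Slc1a3 values was not tested.

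The genes with the pattern most like that of Slc1a3 over the 8 libraries, among 4887 genes at a mean of 20 CPM or more, were Adamts1 and Maged1. Likeness was the root mean square difference of log2 CPM after centring each gene, which was 0.45 and 0.62. Adamts1, a secreted metalloproteinase, ran from 91.2 to 194 CPM in microglia and from 0.159 to 20.8 CPM in BMDM, with a single count in BMDM 4. Maged1 ran from 52.2 to 96.6 CPM in microglia and from 0.159 to 20.3 CPM in BMDM. Maged1 also had 1 count in BMDM 4. BMDM 4 was among the libraries that set the likeness, so a low value there was part of how these genes were chosen.

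Slc1a5 (ASCT2, chr7:16781340-16798274, plus strand) exchanges glutamine and other neutral amino acids. It stood at 12.1, 11.3 and 4.67 CPM in microglia and at 19.6, 20.2, 21.4, 9.71 and 16.4 CPM in BMDM 1 to 5. Only BMDM 4 reached into the range of microglia. The log2 fold change of 0.90 (SE 0.50, 95% interval -0.18 to 1.97) was not called (edgeR adjusted p = 0.487). BMDM 1 to 3 lay above all other libraries, an order that 10% of all genes tested shared.

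Slc3a2 (chr19:8706882-8723369, minus strand) encodes the heavy chain CD98. It had 210.2, 207 and 419 CPM in microglia and 452, 373, 758, 710 and 104 CPM in BMDM 1 to 5. The highest values of all 8 libraries were BMDM 3 and BMDM 4 and the lowest was BMDM 5. With a log2 fold change of 0.78 (SE 0.55, 95% interval -0.39 to 1.95), Slc3a2 was not called (edgeR adjusted p = 0.624). Heavy chain mRNA thus differed within BMDM by more than between the group means of 279 ± 121 CPM (SD, n = 3) and 479 ± 266 CPM (SD, n = 5).

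Slc7a5 (LAT1, chr8:121881150-121907694, minus strand) carries leucine and other large neutral amino acids. Its levels were 68.3, 91.1 and 135 CPM in microglia, 11.9, 11.9 and 8.35 CPM in BMDM 1 to 3, and 86.8 and 111 CPM in BMDM 4 and BMDM 5. BMDM 1 to 3 were below the other 5 libraries, an order that 6.83% of all genes tested shared, and BMDM 4 and BMDM 5 lay within the range of microglia. Over all 8 libraries the log2 fold change was -1.10 (SE 0.73, 95% interval -2.65 to 0.46, edgeR adjusted p = 0.595). With BMDM 1 to 3 alone, Slc7a5 was 9.02-fold higher in microglia, or -3.17 on the log2 scale (SE 0.32, 95% interval -3.88 to -2.46, edgeR adjusted p = 0.000484). With BMDM 4 and BMDM 5 alone it was 0.00 (-0.002, SE 0.39, 95% interval -0.92 to 0.91, edgeR adjusted p = 0.999).

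In the fit with BMDM 1 to 3, 2 of the 10 carriers were called lower (Slc1a3 and Slc7a5) and 0 higher, where 8.11% of all genes tested were lower and 6.35% higher. Gm42418 also differed without overlap between these 6 libraries, and its part in the Slc7a5 difference was not tested. BMDM 4 and BMDM 5 had markers at BMDM levels: Sall1, a transcription factor of microglia, was at 3.50 and 1.66 CPM there against 49.5 to 98.8 CPM in microglia, and the chemokine receptor Ccr2 was at 191 and 116 CPM against 3.32 to 5.57 CPM.

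**Figure D2:**
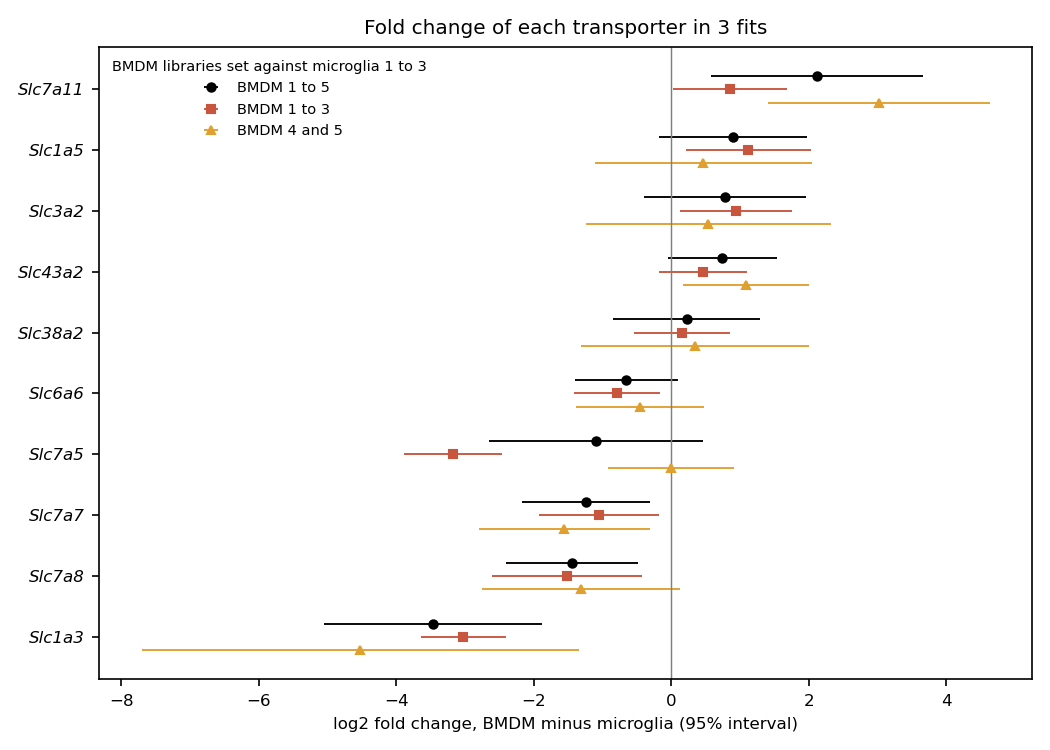
Log2 fold change (BMDM minus microglia, horizontal axis) of the 10 carriers with 95% intervals in 3 edgeR fits, with all BMDM libraries, with BMDM 1 to 3 and with BMDM 4 and BMDM 5; each fit used the same 3 microglia libraries. Slc7a5 moves from -3.17 to 0.00 between the smaller fits and Slc7a11 from 0.85 to 3.02, while Slc1a3 stays at -3.03 or below.

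Slc7a7 (y+LAT1, chr14:54369442-54417780, minus strand) exports arginine and lysine in exchange for neutral amino acids. Microglia had 45.5, 34.5 and 66.4 CPM, and BMDM 1 to 5 had 14.6, 16.2, 38.7, 23.4 and 10.1 CPM. Only BMDM 3 lay above the lowest microglia library. Its fold change on the log2 scale was -1.24 (SE 0.43, 95% interval -2.17 to -0.31, edgeR adjusted p = 0.190). The 3′ end of Slc7a7 overlaps that of Oxa1l on the other strand by 232 bases, and the strand setting of the counting is not stated in the labels.

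Slc7a8 (LAT2, chr14:54722209-54781946, minus strand) is the other leucine exchanger among the light chains. It was at 92.7, 81.4 and 278 CPM in microglia and at 41.7, 29.1, 83.8, 51.4 and 71.0 CPM in BMDM 1 to 5. BMDM 3 alone reached into the microglia range, by passing microglia 2, and microglia 3 was more than 3 times as high as any BMDM library. The log2 fold change of -1.44 (SE 0.45, 95% interval -2.41 to -0.48) missed the threshold (edgeR adjusted p = 0.138). Microglia 3 set much of its size: without it the log2 fold change was -0.73 (edgeR adjusted p = 0.695).

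Slc7a11 (xCT, chr3:49892526-50443614, minus strand) imports cystine and releases glutamate, and its gene is a known target of the stress factors ATF4 and NRF2. Microglia had 19.1, 46.4 and 19.7 CPM. BMDM 1 to 5 had 59.8, 36.8, 56.2, 90.4 and 374 CPM. BMDM 5 stood far above the other libraries, and BMDM 2 lay below microglia 2, so the groups overlapped. The log2 fold change of 2.12 (SE 0.72, 95% interval 0.58 to 3.66) was the highest of the carriers but was not called by edgeR (adjusted p = 0.177), and DESeq2 called it (2.17, adjusted p = 0.0242). Without BMDM 5 it was 1.08 (edgeR adjusted p = 0.138).

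The promoters of Slc1a3, the called carrier, and Slc7a11, the carrier with the highest log2 fold change, are shown for the letters they hold. Each is the 250 bases before the start in RefSeq's GRCm38.p6 annotation, 5′ to 3′ on the minus strand, at chr15:8710808-8711057 and chr3:50443614-50443863. Capitals mark matches to the amino acid response element TGATGNAA (N is any base), the sequence ATF4 is known to bind.
Slc1a3: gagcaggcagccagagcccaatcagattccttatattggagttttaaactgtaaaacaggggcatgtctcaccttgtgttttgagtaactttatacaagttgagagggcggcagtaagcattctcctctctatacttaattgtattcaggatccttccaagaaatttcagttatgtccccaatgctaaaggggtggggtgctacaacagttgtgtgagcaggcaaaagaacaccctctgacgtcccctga
Slc7a11: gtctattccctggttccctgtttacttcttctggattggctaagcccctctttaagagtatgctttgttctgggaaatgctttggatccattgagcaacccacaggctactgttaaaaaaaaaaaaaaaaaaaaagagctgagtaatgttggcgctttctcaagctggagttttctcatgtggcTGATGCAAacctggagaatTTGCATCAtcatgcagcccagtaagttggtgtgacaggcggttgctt
Matches to 3 patterns were searched on both strands of windows that end 50 bases after the start, for the 7 carriers with an entry. Slc7a11 held TGATGCAA beginning 66 bases and TTGCATCA beginning 47 bases before its start. Slc7a7 held TGATGAAA and TGATGCAA at 141 bases and 1 base before one of its starts. Among all genes, 4.51% held such a match in a window. The antioxidant pattern TGACNNNGC matched once, in Slc38a2 (TGACGCGGC, 27 bases before the start), against 14% of all genes, and the E-box CACGTG matched in no carrier, against 8.09%. No match overlapped another of a different pattern, and a match describes letters, not binding.

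The genes most like Slc7a11 over the 8 libraries were Aatk, a kinase, Iqgap1, a cytoskeletal scaffold, and Arrdc4, an arrestin-like protein, with root mean square differences of 0.53 each. All peaked in BMDM 5, at 129.8 CPM for Aatk, 1000 CPM for Iqgap1 and 77.7 CPM for Arrdc4. A choice by likeness to Slc7a11 favours such a peak. Their microglia values ran from 13.3 to 22.5 CPM, from 175 to 310.4 CPM and from 10.3 to 19.5 CPM.

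Slc38a2 (SNAT2, chr15:96687392-96699730, minus strand) takes up glutamine, alanine and other small neutral amino acids and is induced when amino acids are scarce. It was at 229, 311 and 428 CPM in microglia and at 317, 275, 468, 707 and 117 CPM in BMDM 1 to 5. As for Slc3a2, BMDM 3 and BMDM 4 were the highest of the 8 libraries and BMDM 5 the lowest. Between the groups it differed by a log2 fold change of 0.22 (SE 0.50, 95% interval -0.84 to 1.29, edgeR adjusted p = 0.918), and without BMDM 4 it was -0.13.

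Slc43a2 (LAT4, chr11:75531694-75577575, plus strand) lets large neutral amino acids such as leucine and phenylalanine pass without exchange. Its levels were 48.7, 102 and 72.4 CPM in microglia and 109.7, 98.0, 96.2, 147 and 172 CPM in BMDM 1 to 5. Microglia 2 lay above BMDM 2 and BMDM 3, and the log2 fold change of 0.74 (SE 0.37, 95% interval -0.05 to 1.53) was not called (edgeR adjusted p = 0.406). With BMDM 1 to 3 alone it was 0.46, and with BMDM 4 and BMDM 5 alone 1.09 (edgeR adjusted p = 0.32 and 0.227).

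Slc6a6 (TauT, chr6:91684053-91759066, plus strand) takes up taurine, an osmolyte. Microglia had 168, 254 and 320 CPM, and BMDM 1 to 5 had 135, 134, 154, 152 and 211 CPM. Only BMDM 5 lay above the lowest microglia library. Slc6a6 had a log2 fold change of -0.65 (SE 0.35, 95% interval -1.40 to 0.09), which was not called (edgeR adjusted p = 0.457). With BMDM 1 to 3 alone it was -0.79, and with BMDM 4 and BMDM 5 alone -0.46 (edgeR adjusted p = 0.0871 and 0.623).

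Since the light chains need Slc3a2, their reads were also set against its reads within each library, a ratio that no scaling of libraries can change. It was used to compare libraries, not genes, and as a description without a test. Per 100 Slc3a2 reads, Slc7a7 gave 21.7, 16.6 and 15.9 reads in microglia and 3.24, 4.36, 5.10, 3.30 and 9.69 in BMDM 1 to 5, with no overlap. Slc7a5 gave 32.5, 44.0 and 32.2 reads in microglia, 2.62, 3.20 and 1.10 reads in BMDM 1 to 3, with 12.2 for BMDM 4 and 106 for BMDM 5. BMDM 4, whose Slc7a5 level lay among those of microglia, was thus below all microglia by this ratio. Slc7a8 gave 44.1, 39.3 and 66.4 reads in microglia and 9.22, 7.79, 11.1, 7.24 and 68.3 in BMDM 1 to 5, so BMDM 5 alone exceeded microglia. By CPM the groups overlapped for Slc7a7, and Slc3a2 was higher in BMDM 1, BMDM 3 and BMDM 4 than in any microglia library. The separation by the Slc7a7 ratio thus rests on both genes. How many other genes separate the groups by a ratio to Slc3a2 was not counted.

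The ratio of Slc7a11 did not follow that of the other light chains. Per 100 Slc3a2 reads, it gave 9.08, 22.4 and 4.70 in microglia, 13.2, 9.87, 7.41 and 12.7 in BMDM 1 to 4, and 359.8 in BMDM 5. BMDM 5, with the lowest Slc3a2 of all libraries and the highest Slc7a11, was the library in which every light chain took its highest ratio within BMDM. The carrier that releases glutamate was also set against the one that takes it up. Per 100 Slc1a3 reads, Slc7a11 gave 14.2, 54.8 and 15.8 in microglia and 397, 256, 455 and 3762 in BMDM 1, 2, 3 and 5, while BMDM 4 had no Slc1a3 read.

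**Figure D3:**
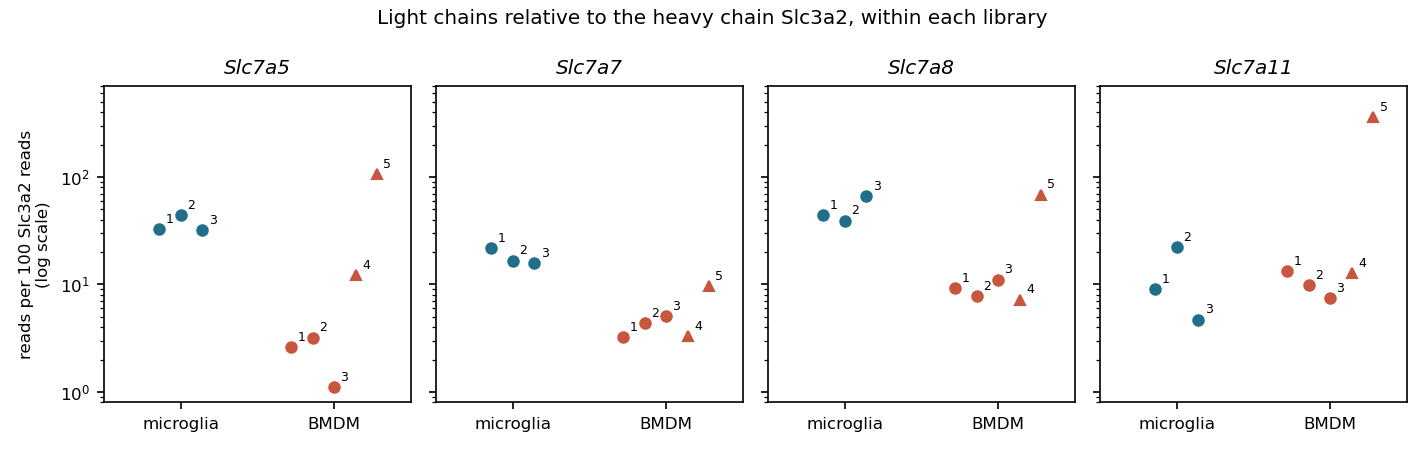
Reads of each light chain per 100 Slc3a2 reads (log axis) in each library, numbered as in the labels, with BMDM 4 and BMDM 5 as triangles. The ratio of Slc7a7 separates the groups, although its CPM alone do not. The ratio of Slc7a5 is lowest in BMDM 1 to 3 (1.10 to 3.20), and BMDM 5 is the highest BMDM library in all panels.

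Within the groups, the carriers ranked the libraries in different orders. Microglia 3 was the highest microglia library for 6 of the 10 carriers and the lowest for 1. In BMDM, BMDM 5 was the highest for 4 (Slc6a6, Slc7a5, Slc7a11 and Slc43a2) and the lowest for 3 (Slc3a2, Slc7a7 and Slc38a2). BMDM 3 was the highest for 4 and the lowest for 2. For 7 of the 10 carriers, all but Slc1a3, Slc6a6 and Slc7a8, the range of CPM within BMDM was wider than the difference between the group means. The same count was not made over all genes, so it cannot be read as particular to the carriers.

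Of 65 other amino acid carriers in the table, 40 passed the filter on low counts, and edgeR called 0 of them higher and 0 lower in BMDM. By unadjusted p under 0.05, 2 were higher and 2 lower, against 6.49% and 7.27% of all genes tested. With DESeq2, 1 was higher (Slc7a2) and 0 lower, and with limma-voom 0 were called in either direction. The median log2 fold change of the 40 was -0.17. Slc1a7, Slc3a1, Slc6a18, Slc7a10, Slc7a12 and Slc7a13 had no count in any library.

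Slc7a2, a cationic amino acid transporter that brings arginine into macrophages, had 8.31, 19.0 and 6.67 CPM in microglia and 44.5, 95.6, 38.3, 5.09 and 117 CPM in BMDM 1 to 5. BMDM 4 was the lowest of all libraries and the other BMDM libraries lay above all microglia. The log2 fold change was 2.41 (SE 0.76, edgeR adjusted p = 0.141), and without BMDM 4 it was 2.67 and was called (edgeR adjusted p = 0.0310). Slc7a1, its relative with wider expression, had 37.5, 68.0 and 60.0 CPM in microglia and 18.5, 18.1, 21.1, 18.9 and 87.3 CPM in BMDM 1 to 5. Slc7a1 was not called (log2 fold change -0.75, edgeR adjusted p = 0.617), BMDM 5 being the highest of all libraries. Without BMDM 5 it was -1.53 and was called (edgeR adjusted p = 0.0113). That fit called 602 of 15864 genes lower, and the fit without BMDM 4 called 147 of 16501 genes higher. For Slc7a1 and Slc7a2 alike, the library left out was the one that went against the rest of BMDM. Both calls therefore follow in part from that choice.

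Slc38a1, a glutamine carrier, ran from 139 to 191 CPM in microglia and from 73.8 to 136 CPM in BMDM without overlap (log2 fold change -0.72, SE 0.33, edgeR adjusted p = 0.35). Slc1a4, a neutral amino acid exchanger of the Slc1 family, ran from 3.34 to 4.93 CPM in microglia and from 0 to 2.35 CPM in BMDM (-2.34, SE 1.497, edgeR adjusted p = 0.577). Slc6a13, a GABA and taurine carrier, ran from 2.11 to 6.94 CPM in microglia and from 7.80 to 28.8 CPM in BMDM (1.62, SE 0.63, edgeR adjusted p = 0.241). For each of these the groups did not overlap and the test did not call them. Slc6a9 (-1.93), Slc38a10 (-0.13), Slc16a10 (-1.49), Slc36a1 (-0.49), Slc15a3 (0.16), Slc15a4 (0.00), Slc25a39 (-0.45) and Slc25a44 (0.06), the other leading genes of their families by mean CPM, overlapped and were not called.

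Around the carriers, 93 enzymes, regulators, sensors and glutamate receptors were in the table and 77 passed the filter. Of these, 1 was called lower and 0 higher by edgeR. At an unadjusted p under 0.05, 5 were higher and 7 lower, against 6.49% and 7.27% of all genes tested, and their median log2 fold change was -0.13. DESeq2 called 2 higher (Gsr and Eif4ebp1) and 2 lower (Csad and Myc), and limma-voom called 0 higher and 3 lower (Psat1, Csad and Myc). The gene called by edgeR, Csad, encodes the decarboxylase that makes the precursor of taurine, the cargo of Slc6a6. Csad had 38.7, 43.9 and 48.3 CPM in microglia and 9.05, 14.6, 9.27, 10.7 and 3.59 CPM in BMDM 1 to 5. No library of BMDM came near microglia, and the log2 fold change was -2.21 (SE 0.43, edgeR adjusted p = 0.0156). The Csad call was lost without microglia 1, 2 or 3 (adjusted p = 0.0555, 0.0625 and 0.0877) and with library totals alone (adjusted p = 0.0553).

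Among the enzymes of glutamate and glutamine, 18 of 22 were tested and 0 were called by edgeR in either direction. At an unadjusted p under 0.05, 1 was higher and 4 were lower, against 6.49% and 7.27% of all genes tested. DESeq2 called 1 higher (Gsr) and 0 lower, and limma-voom 0 higher and 1 lower (Psat1). Glul, which makes glutamine from glutamate, ran from 484 to 834 CPM in microglia and from 105 to 391 CPM in BMDM. Its groups did not overlap, but its log2 fold change of -1.28 (SE 0.43) was not called (edgeR adjusted p = 0.175). Got1, a transaminase, ran from 88.4 to 109 CPM in microglia and from 107 to 231 CPM in BMDM (0.70, edgeR adjusted p = 0.464). Bckdha, of the branched-chain keto acid dehydrogenase, overlapped (-0.25).

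The regulators that are known to act on these carriers gave 0 calls by edgeR in 12 of 12 tested, while 1 was called lower (Myc) with DESeq2 and with limma-voom. By unadjusted p under 0.05, 0 were higher and 2 lower, against 6.49% and 7.27% of all genes tested. Atf3, a stress transcription factor, ran from 431 to 857 CPM in microglia and from 280 to 402 CPM in BMDM without overlap (log2 fold change -0.91, SE 0.36, edgeR adjusted p = 0.260). Nfe2l2, which encodes NRF2, had a log2 fold change of 0.15 (SE 0.42) with overlapping groups. Of the 28 genes of mTORC1 and amino acid sensing, 0 were called by edgeR. Of these, 3 were higher and 0 lower by unadjusted p under 0.05, against the same 6.49% and 7.27%. With DESeq2, Eif4ebp1, a brake on translation that mTORC1 releases, was called higher, and with limma-voom 0 were called. Lamtor1, of the lysosomal complex that holds mTORC1, overlapped (-0.13).

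Fnip1, a partner of folliculin in amino acid sensing, also had BMDM 1 to 3 below all other libraries, as Slc7a5 did. It stood at 162, 204 and 159 CPM in microglia, 39.1, 40.6 and 32.0 CPM in BMDM 1 to 3, and 156 and 187 CPM in BMDM 4 and BMDM 5. Its log2 fold change was -0.94 over all libraries (edgeR adjusted p = 0.509) and -2.22 with BMDM 1 to 3 alone (edgeR adjusted p = 0.00090). This order was held by 6 of the 77 tested genes of these lists (7.79%) and by 6.83% of all genes tested.

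Of 21 glutamate receptor genes in the table, 12 passed the filter and 0 were called in either direction by edgeR, DESeq2 or limma-voom. At an unadjusted p under 0.05, 1 was higher and 0 were lower, against 6.49% and 7.27% of all genes tested. All were low: the sum of the 21 ran from 22.4 to 47.2 CPM in microglia and from 26.6 to 104 CPM in BMDM. The receptor subunits with the highest means, Grin2b and Grik1, ran from 2.41 to 9.20 CPM and from 1.00 to 10.7 CPM in microglia, and from 7.14 to 21.7 CPM and from 0 to 17.6 CPM in BMDM.

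**Figure D4:**
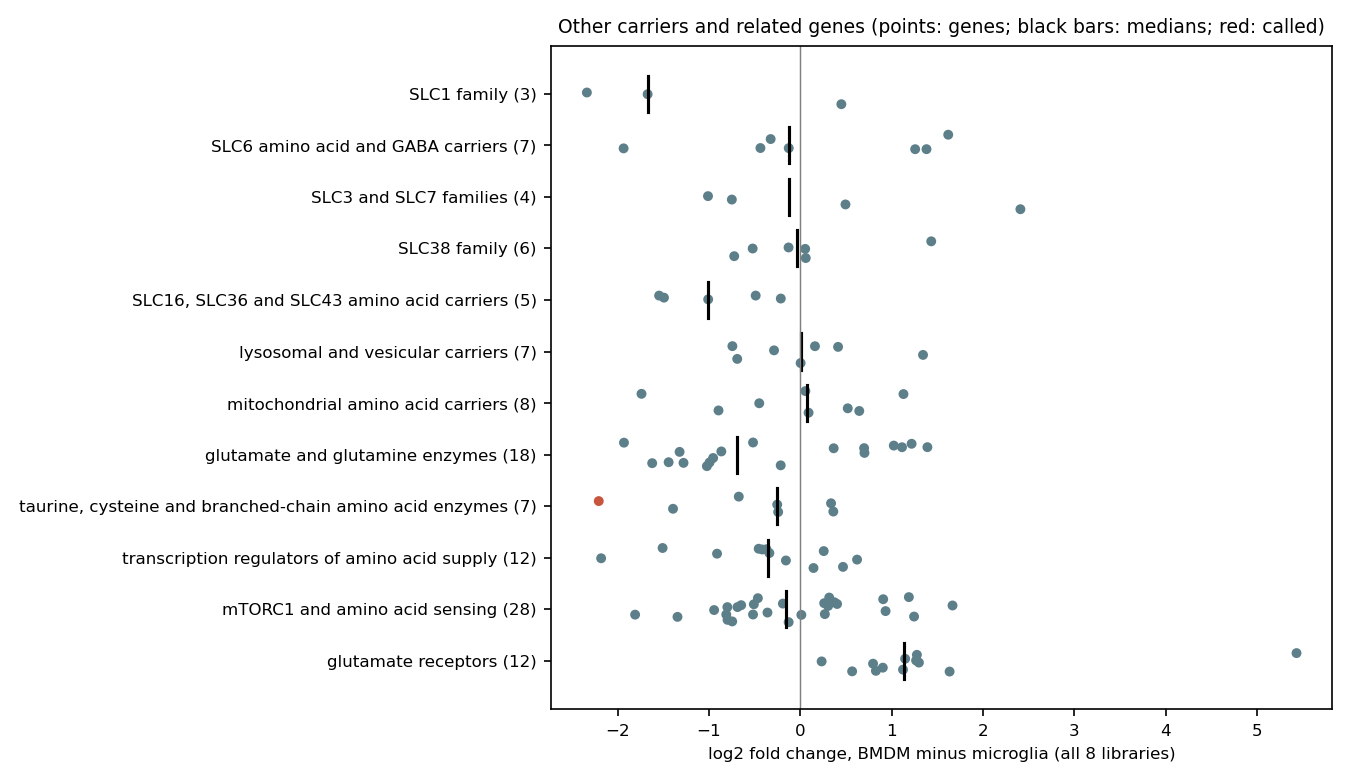
Log2 fold change (BMDM minus microglia, all 8 libraries, horizontal axis) of each tested gene in the lists of other amino acid carriers and of related genes; points are genes, black bars are list medians, the number tested is in brackets, and red marks a call. The single called gene is Csad, and list points spread on both sides of 0 except for glutamate receptors (all above 0 among the 12 of 21 that passed the filter) and the Slc16, Slc36 and Slc43 carriers (all below).

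Markers of other cells were read once for all carriers, although the gates (F4/80+, CD11b+, Ly6G negative) are meant to leave out neutrophils, lymphocytes, endothelial cells and non-myeloid brain cells. T and NK cell markers summed to 4.45 to 22.5 CPM in microglia and 26.5 to 223 CPM in BMDM, neutrophil markers to 36.9 to 40.5 and 55.8 to 117 CPM, and endothelial markers to 34.0 to 59.8 and 58.1 to 85.1 CPM. The first pair of lists moved with the groups without overlap. Of their tested genes, edgeR called 0 of 8 and 1 of 5 higher (S100a8), DESeq2 4 in each and limma-voom 0 in each. Over all genes tested, 1.11% were called higher by edgeR, 3.65% by DESeq2 and 0.856% by limma-voom. By unadjusted p under 0.05, 6 and 4 were higher and 0 and 1 lower, against 6.49% and 7.27% of all genes tested. Csf3r of the neutrophil list went the other way, from 24.4 to 34.4 CPM in microglia and from 5.33 to 16.0 CPM in BMDM, and DESeq2 called it lower. Of 8 endothelial genes, 7 were tested and 0 were called by edgeR, DESeq2 or limma-voom (1 higher and 0 lower by unadjusted p under 0.05). Of the dendritic cell markers, Siglech, which is also a microglia marker, was called lower and Ccr7 higher. The 6 without Siglech summed to 1.73 to 4.53 CPM in microglia and 2.90 to 69.5 CPM in BMDM. No gene of these lists was at 0 in all libraries, and their part in the carriers' values was not tested. Oligodendrocyte markers summed to 126 to 272 CPM in microglia and 109.6 to 158 CPM in BMDM, and glioma cell markers to 239 to 618 and 384 to 512 CPM, with overlap. Neuron markers summed to 27.5 to 45.5 CPM and 23.9 to 97.9 CPM, also with overlap. Of the oligodendrocyte genes, 9 were tested and edgeR called 0, with 0 higher and 2 lower by unadjusted p under 0.05. Olig1 ran from 28.3 to 81.5 CPM in microglia and from 0.637 to 33.6 CPM in BMDM (-2.28), while 5 of the 9 had folds above 0. Vim, at 177 to 512 CPM in microglia, held much of the glioma sum and differed by 0.10. Sox2 differed by -1.19, and 3 of the 7 tested glioma genes had folds above 0.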

How the data were processed

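Expression was measured by 3′ RNA sequencing (QuantSeq FWD) in 3 microglia and 5 BMDM libraries. The authors deposited raw read counts per gene, and the submitters' processing notes name cutadapt, STAR, featureCounts and the mm10 build without settings. The strand setting and the treatment of multi-mapping reads are not given in the sources used. Positions are from GENCODE M21 on GRCm38 and promoters from RefSeq. Several carriers contain or overlap other gene models, which had 110 counts at most per library except for Oxa1l beside Slc7a7.

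The test was edgeR 4.0.16's quasi-likelihood test under R 4.3.3 (TMM factors, filterByExpr with a minimum count of 10 and a minimum total of 15, robust quasi-likelihood fits, Benjamini-Hochberg adjustment over 16467 genes, threshold 0.05). Totals of 5890406 to 16659154 counts set the precision. Libraries of a group differed by more than sampling noise in every pair (lowest chi-square per degree of freedom 19, BMDM 1 against BMDM 2). The edgeR, DESeq2 and voom fits of all 8 libraries were first tested on simulated data. Their variants with other factors, filters, weights, blocks or libraries were not.

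Alternatives were DESeq2 1.42.0, limma 3.58.1 (voom, with and without quality weights), RLE factors, library totals alone, other filters, a replicate block, BMDM 1 to 3 or BMDM 4 and 5 alone, the table without Gm42418 and mitochondrial rRNA, and each library left out. Members and lists were chosen with earlier results of these data known. Named genes are all members, called genes of the lists, the 2 list genes with the highest mean CPM in each family, and the 3 genes most like the 2 members with the highest absolute fold change. Fnip1, Psat1, Gsr, Myc, Eif4ebp1, Gclc and Ccr2 are given as parts of counts or of a list. Some genes that these rules name are not reported here.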

Additional observations from a re-analysis of the deposited data

Results flagged for a closer look

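Slc7a11 stood at 374 CPM in BMDM 5, far above the 36.8 to 90.4 CPM of BMDM 1 to 4. The gap to the nearest library took 0.841 of the whole range of BMDM, past the critical value of 0.71 for a group of 5. Slc6a6 stood at 211 CPM in BMDM 5, above the 134 to 154 CPM of BMDM 1 to 4, with a gap of 0.741 of the range. The same check was made for the highest and the lowest BMDM library of each of the 10 carriers. Chance passes such a value in about 1 of 20 groups. BMDM 5 had the highest Gm42418 share of the 8 libraries (48.9%), and the part of library quality in these values was not tested.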

How the results depend on the processing

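Over 19 alternatives, Slc1a3 had log2 fold changes of -4.52 to -3.02 and was called in 11. Calls of the 10 carriers (higher and lower in BMDM, against 0 and 1) were 1 and 1 with DESeq2, 1 and 2 without a filter, 0 and 4 with quality-weighted voom, 0 and 2 with BMDM 1 to 3, and 0 and 0 with library totals alone or with BMDM 4 and 5. Other carriers (against 0 and 0) gave 1 and 0 with DESeq2 and without a filter, 2 and 5 with quality weights and 1 and 1 with BMDM 1 to 3. Related genes (against 0 and 1) gave 2 and 2 with DESeq2, 1 and 1 with RLE factors and with the filter of 10 CPM in 3 libraries, 0 and 0 with totals alone or with BMDM 4 and 5, 1 and 4 without a filter, 0 and 3 with voom, 5 and 9 with quality weights and 5 and 8 with BMDM 1 to 3. All genes (against 183 and 134) gave 601 and 313, without a filter 403 and 318, with voom 141 and 250, with quality weights 1063 and 1668, with BMDM 1 to 3 1028 and 1312, and with BMDM 4 and 5 11 and 6. Leaving out 1 library gave 0 to 0 and 0 to 1 carriers, 0 to 1 and 0 to 1 other carriers, 0 to 1 and 0 to 3 related genes, and 58 to 536 and 46 to 602 of all genes. Microglia and BMDM libraries of equal replicate number had correlations of 0.279, 0.129 and -0.0065, and those of unequal number -0.3 to 0.273. So few libraries cannot decide whether equal numbers are paired. A fit with the replicate block gave 1 and 5 carriers, 2 and 5 other carriers, 5 and 13 related genes, and 1449 and 1774 of all genes. BMDM 4 and BMDM 5 have no microglia library of their number, so the fold changes of that fit rest on replicates 1 to 3.

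Signs turned for values near 0. Slc38a2 ran from -0.13 to 0.44 with 1 library left out. Slc1a2 was -0.92 with voom, -1.72 with quality weights, -1.43 with the replicate block, -0.32 with BMDM 1 to 3 and -0.41 to 1.04 with 1 library left out. Nfe2l2 was -0.20 with quality weights, -0.23 with the replicate block, -0.11 with BMDM 1 to 3 and -0.008 to 0.32 with 1 left out. Slc15a4 was -0.022 without a filter, -0.067 with voom, -0.33 with quality weights, -0.35 with the replicate block, -0.27 with BMDM 1 to 3 and -0.17 to 0.14 with 1 left out. Slc25a44 and Bckdha were -0.26 and 0.39 with BMDM 4 and 5, and -0.087 to 0.21 and -0.69 to 0.35 with 1 left out. Lamtor1 and Slc38a10 were 0.016 and 0.036 with totals alone, Slc38a10 was 0.001 with quality weights, and they ran from -0.37 to 0.056 and -0.31 to 0.13 with 1 left out. Slc15a3 ran from -0.069 to 0.35. The median of all genes was 0.08, and 0.18 with RLE factors, 0.20 with totals alone and -0.23 with voom. The causes were not tested. Library number and the spread within BMDM limit what a missing call says, and counting error is small beside them.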

Other observations

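An enzyme of glutathione synthesis also had BMDM 1 to 3 below all other libraries, an order that 6.83% of all genes tested shared. Gclc, the catalytic subunit that joins glutamate and cysteine, was at 44.9, 45.0 and 70.3 CPM in microglia, 11.2, 7.14 and 7.44 CPM in BMDM 1 to 3, and 37.6 and 43.7 CPM in BMDM 4 and BMDM 5. It was chosen after its values were seen, and edgeR did not call it over all 8 libraries (adjusted p = 0.308). Unlike for Slc7a5, BMDM 4 and BMDM 5 lay below all microglia libraries too. Gsr, glutathione reductase, ran the other way, from 15.5 to 18.4 CPM in microglia and from 27.7 to 56.0 CPM in BMDM without overlap (1.39, edgeR adjusted p = 0.0709). Psat1, of serine synthesis, ran from 34.4 to 48.1 CPM in microglia and from 3.50 to 20.6 CPM in BMDM (-1.93, edgeR adjusted p = 0.0719).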
